A study of Mus musculus with 6 samples.

Results

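The BH3-only genes encode the small proteins that start the mitochondrial (intrinsic) pathway of cell death. They were described here by 8 genes, namely Bcl2l11, Pmaip1, Bbc3, Bid, Bad, Bmf, Bik and Hrk. Members were the rows of the annotated gene table whose symbol was 1 of these 8 names, which gave 8 of 22322 genes. Messenger RNA was sequenced from sorted CD4+CD8+ double-positive (DP) thymocytes. There were 3 control libraries, labelled WT-DP, and 3 conditional knockout (cKO) libraries, labelled Lck-KO-DP. The labels call the controls WT, whereas the study's methods describe them as Paxbp1 fl/fl littermates. Control mice carried the floxed Paxbp1 allele on both chromosomes (Paxbp1 fl/fl) without Cre, and cKO mice carried the same alleles together with Lck-cre, a transgene in which the Lck promoter drives Cre from early stages of T cell development. The mice of both groups were littermates of mixed sexes on a C57BL/6 background, aged 4 to 7 weeks, and no drug or stimulus was given in the labels. The controls lacked the transgene, so an effect of Cre itself and an effect of the deletion cannot be told apart. The sources do not say whether a library came from 1 mouse or from several, and p-values measure only the spread between these libraries.

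In a healthy cell the BCL-2 survival proteins (BCL-2, BCL-XL, MCL-1 and their relatives) hold the pore-forming effectors BAX and BAK in check. A BH3-only protein inserts its BH3 helix into the groove of a survival protein, or touches BAX and BAK directly, and the outer mitochondrial membrane then opens, releases cytochrome c and leads to caspase activation. DP thymocytes live for a short time and most of them die in the thymus, either because their receptor recognises nothing or because it recognises self too strongly. BIM, the product of Bcl2l11, is the BH3-only protein best known for the death of self-reactive thymocytes, and BCL-XL, the product of Bcl2l1, is the survival protein best known in DP cells.

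The BH3 motif is what unites the 8 genes, which otherwise share little sequence, so the coding stretch of the motif is shown to let the members be compared. Each stretch is 30 bases of coding DNA, 5′ to 3′, read from the GENCODE M21 principal transcript on GRCm38. It was found by the pattern of a leucine, any 3 residues, then glycine, alanine or serine followed by aspartate, which matched 1 time in each coding sequence. Capitals mark the leucine codon and the last pair of codons of the pattern.
Bcl2l11: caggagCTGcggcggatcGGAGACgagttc
Bbc3: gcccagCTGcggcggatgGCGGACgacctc
Bid: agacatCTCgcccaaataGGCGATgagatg
Bad: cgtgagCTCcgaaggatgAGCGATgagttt
Bmf: agaaagCTTcagtgtattGCAGACcagttc
Bik: ttgaggCTGgcctgcatcGGCGATgagatg
Hrk: ctgcggCTGcaggcgctgGGCGACgagctg
The stretch of Pmaip1 is not printed. Bcl2l11 and Bbc3 were the closest pair, with 21 of 30 bases identical, followed by Bcl2l11 and Bad with 20, while Bbc3 shared 13 with Bid and 13 with Bik.

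On GRCm38 these stretches lie in coding exons at chr2:128147144-128147173 on the plus strand for Bcl2l11 (exon 3 of 4), chr7:16313767-16313796 on the plus strand for Bbc3 (exon 3 of 4) and chr6:120897292-120897321 on the minus strand for Bid (exon 4 of 6). The stretch of Bad lies at chr19:6950786-6950815 on the plus strand (exon 3 of 4), that of Bmf at chr2:118545103-118545132 on the minus strand (exon 4 of 5), that of Bik at chr15:83543078-83543107 on the plus strand (exon 3 of 5) and that of Hrk at chr5:118169885-118169914 on the plus strand (exon 1 of 2). Not every annotated coding transcript holds the motif. It was present in 4 of 5 coding transcripts of Bcl2l11, 1 of 3 of Bbc3, 1 of 2 of Bid and 6 of 8 of Bad, and in every coding transcript of Bmf (2), Bik (4) and Hrk (1). Gene counts pool these transcripts, so a change in a gene count does not say which of them changed. Bid overlaps other annotated genes over 3325 bases, Bad over 620 and Bik over 538, and reads there could be assigned to either gene.

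Libraries held between 18963775 and 26252248 counts, and 1 count was worth 0.0388 to 0.0520 CPM (counts scaled to library size, with factors from the trimmed mean of M-values, TMM). Counts of Paxbp1 itself went against the labels: they were 774, 318 and 400 in control libraries 1, 2 and 3 and 851, 905 and 1075 in cKO libraries 1, 2 and 3 (log2 fold change 0.92, SE 0.33, edgeR adjusted p = 0.0977). The deletion removes exon 8 alone and counts over the whole gene do not check it, so all directions below rest on the labels. DP markers were abundant, with Cd4 at 162 to 292 CPM and Cd8a at 1375 to 2140 CPM in the 6 libraries, and 4 of 12 DP markers were lower in cKO (Cd8b1, Rag1, Cd1d1 and Cd3e), with a summed level of 11769 to 13657 CPM in control and 8731 to 10252 CPM in cKO. Of 20 macrophage markers, 14 were tested and 6 were higher in cKO. The level summed over all 20 was 55.6 to 102 CPM in control and 121 to 166 CPM in cKO. Much of this sum was Apoe and Lyz2, neither of them called. Apoe stood at 26.4 to 47.8 CPM in control and 46.2 to 71.9 CPM in cKO, so the sum says little about the 6 called genes. The defining macrophage markers Mertk and Marco had no count in any library, whereas Adgre1 (F4/80) had none in control and 42 to 52 counts in cKO. Among DN markers, Il2ra and Dtx1 of 5 tested genes were higher, and the list summed to 23.4 to 31.9 CPM in control and 40.6 to 42.5 CPM in cKO. Cd69 of 5 tested markers of mature SP cells was higher, and Cd79b, the 1 tested B cell marker, was lower. Of the 2 tested dendritic cell markers, none passed the edgeR test, none had an unadjusted p under 0.05, and DESeq2 and limma-voom called none. In bulk samples fewer cells of a type and less RNA per cell cannot be told apart.

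Pmaip1 and Bcl2l11 were higher in the cKO libraries, and the other 5 tested members did not pass the test. Pmaip1 was 4.94-fold higher and Bcl2l11 2.48-fold higher. Of the 8 members 7 passed the filter on low counts and 2 were called higher at an edgeR adjusted p below 0.05, a call that 4.47% of the 11488 tested genes received. No member was called lower, against 5.89% of all tested genes, so that 2 of 7 were called in either direction where 10.4% of all tested genes were. At an unadjusted p under 0.05, 1 member was lower (Bmf), and the share of all tested genes at that threshold was not counted. DESeq2 also called 1 lower (Bmf), where it called 987 of 11487 genes lower. By limma-voom no member was lower, where 717 of 11488 genes were. With a log2 fold change above 1 required as well, both Pmaip1 and Bcl2l11 stayed called, where the background was 1.53% for higher genes, and no member was called lower, where it was 1.23%. The groups did not overlap in 4 of the 7 tested members, against 33.0% of all tested genes: Pmaip1 and Bcl2l11 were higher in every cKO library, as were 15.7% of all tested genes, and Bmf and Bik were lower in every cKO library. The median log2 fold change over the 7 members was 0.013, and over all tested genes it was -0.0017.

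**Figure D1:**
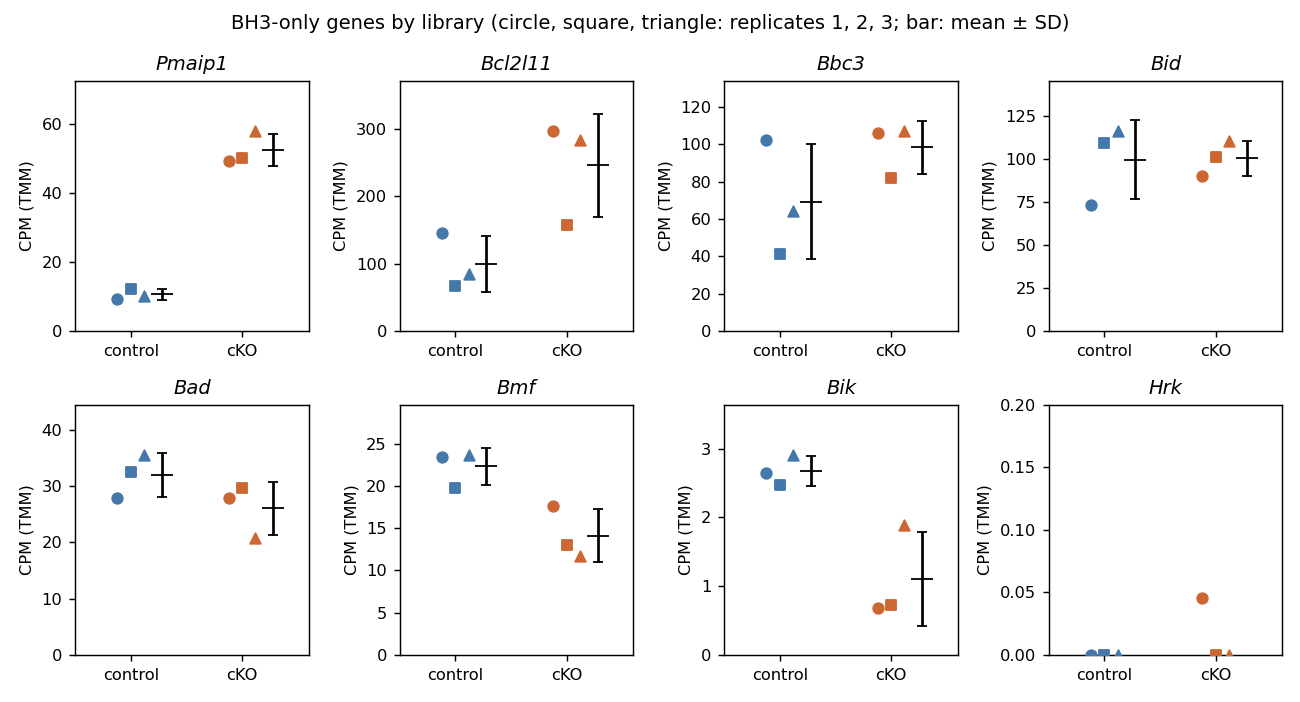
Level of each of the 8 BH3-only genes in CPM (TMM-scaled, each panel with its own linear axis) in the 3 control and 3 cKO libraries, with the mean and SD beside each group except for Hrk. Pmaip1 separated widely, from at most 12.3 CPM in control to at least 49.3 CPM in cKO, while the highest control library of Bcl2l11 (146 CPM) stood just under its lowest cKO library (157 CPM).

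Pmaip1 (chr18:66458533-66465565, plus strand) encodes NOXA, which binds MCL-1 and A1 and was first described as a target of p53. Its level was 9.33, 12.3 and 10.2 CPM in control libraries 1, 2 and 3 and 49.3, 50.2 and 58.0 CPM in cKO libraries 1, 2 and 3. Every cKO library was far above every control library, and the spread within each group was small. Means were 10.6 ± 1.54 CPM in control and 52.5 ± 4.74 CPM in cKO (SD, n = 3 each). The log2 fold change was 2.30 (SE 0.17, 95% interval 1.92 to 2.69, edgeR adjusted p = 8.96e-04). Among the 11488 tested genes Pmaip1 ranked 1 by p-value and 85 by log2 fold change. The counts behind these levels were 180, 240 and 264 in control and 1081, 965 and 1256 in cKO. The call held when each of the 6 libraries was left out in turn.

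Bcl2l11 (chr2:128126038-128162547, plus strand) encodes BIM, which binds every main survival protein and can activate BAX and BAK directly. Its level was 146, 67.3 and 84.2 CPM in control libraries 1, 2 and 3 and 296, 157 and 283 CPM in cKO libraries 1, 2 and 3. Control library 1 and cKO library 2 came close to each other, and the remaining libraries were well apart. Means were 99.1 ± 41.2 CPM in control and 245 ± 76.5 CPM in cKO (SD, n = 3 each), so that the coefficient of variation was 41.6% and 31.2%. The log2 fold change was 1.31 (SE 0.30, 95% interval 0.65 to 1.97, edgeR adjusted p = 0.0228). The gene ranked 586 by p-value and 375 by log2 fold change among all tested genes. The call rested on several libraries: the edgeR adjusted p was 0.0747 without control library 2, 0.0669 without control library 3, 0.0878 without cKO library 1 and 0.106 without cKO library 3. The log2 fold change was between 1.09 and 1.69 in all 6 of these fits.

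The rise of both genes came with higher macrophage markers and lower DP markers in the same libraries. The summed macrophage level was 102, 70.5 and 55.6 CPM in control libraries 1, 2 and 3 and 156, 121 and 166 CPM in cKO libraries 1, 2 and 3. Much of that sum was Apoe and Lyz2, which were not called, and the levels of the called markers are given above. The part of the marker differences in the rise of Pmaip1 and Bcl2l11 was not tested.

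Bbc3 (chr7:16308393-16318205, plus strand) encodes PUMA, a target of p53 that binds all survival proteins and acts in thymocyte death after DNA damage or glucocorticoid. Its level was 102, 41.0 and 64.5 CPM in control and 106, 82.0 and 107 CPM in cKO. The groups overlapped, since control library 1 reached the level of cKO libraries 1 and 3. Means were 69.2 ± 30.9 and 98.3 ± 14.1 CPM (SD, n = 3 each), and the log2 fold change was 0.51 (SE 0.27, 95% interval -0.09 to 1.11, edgeR adjusted p = 0.255). Without control library 1 it was 0.89 with an edgeR adjusted p of 0.0160, past the threshold.

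Bcl2l11 and Bbc3 shared the order of the control libraries and the lowest cKO library. Control library 1 was the highest control for both and control library 2 the lowest, and cKO library 2 was the lowest cKO library for both. Ddit3 and Foxo1, described below, had the same order and E2f1 did not, so the order was not particular to these members. Its share over all tested genes was not counted. On the log2 scale the libraries deviated from their group mean by 0.63, -0.48 and -0.16 in control and 0.33, -0.59 and 0.26 in cKO for Bcl2l11. For Bbc3 the deviations were 0.66, -0.66 and -0.0044 in control and 0.12, -0.25 and 0.13 in cKO. Bid went the other way in control library 1, with deviations of -0.41, 0.16 and 0.25 in control.

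Bid (chr6:120891930-120916853, minus strand) encodes the member that caspase-8 cleaves, which links death receptors to mitochondria. It stood at 73.4, 109 and 116 CPM in control and 89.9, 101 and 110 CPM in cKO, and the cKO libraries lay inside the range of the controls. Its log2 fold change was 0.013 (SE 0.17, edgeR adjusted p = 0.974). The 95% interval ran from -0.37 to 0.40, which leaves room for a modest change in either direction, and the value was -0.17 without control library 1 and -0.060 without cKO library 3.

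Bad (chr19:6941861-6951899, plus strand) encodes a protein that growth factor signalling phosphorylates and that 14-3-3 proteins then hold in the cytosol. It stood at 27.8, 32.4 and 35.5 CPM in control and 27.8, 29.6 and 20.7 CPM in cKO, with overlapping groups. Its log2 fold change was -0.29 (SE 0.18, 95% interval -0.70 to 0.11, edgeR adjusted p = 0.335).

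**Figure D2:**
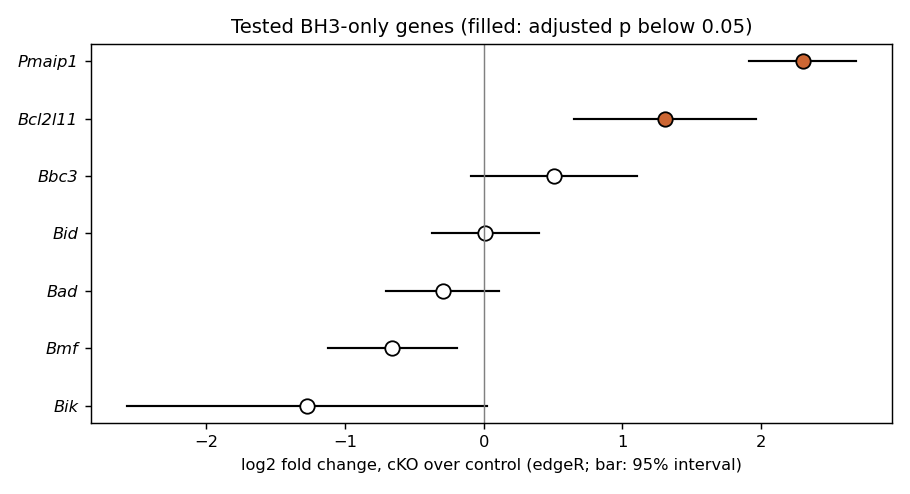
Log2 fold change of cKO over control for the 7 tested BH3-only genes, from edgeR; points are estimates, bars are 95% intervals, and filled points have an adjusted p below 0.05. The members spread from -1.27 for Bik to 2.30 for Pmaip1, and Bid lay at 0.013.

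Bmf (chr2:118528757-118549687, minus strand) encodes a protein kept at the actin cytoskeleton through a dynein light chain until stress or loss of attachment frees it. Its level was 23.4, 19.8 and 23.7 CPM in control and 17.7, 13.0 and 11.7 CPM in cKO. Every cKO library was below every control library, as for 17.3% of all tested genes. Means were 22.3 ± 2.18 and 14.1 ± 3.14 CPM (SD, n = 3 each). The log2 fold change was -0.66 (SE 0.21, 95% interval -1.13 to -0.19), with an unadjusted p of 0.0102 and an edgeR adjusted p of 0.0715. DESeq2 gave an adjusted p of 0.0430, so the call depended on the tool.

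Bik (chr15:83526862-83544634, plus strand) encodes a BH3-only protein of the endoplasmic reticulum. It was scarce, with 51, 48 and 75 counts in control and 15, 14 and 41 counts in cKO. These correspond to 2.64, 2.47 and 2.91 CPM and to 0.684, 0.729 and 1.89 CPM, and every cKO library was again below every control library. Its log2 fold change was -1.27 (SE 0.59, 95% interval -2.57 to 0.026, edgeR adjusted p = 0.188). Without cKO library 3, the highest of its group, it was -1.91. On deposited FPKM values, limma gave an adjusted p of 0.0476 with 0.1 added before the logarithm and 0.0359 with 1 added.

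Hrk (chr5:118164648-118189478, plus strand) encodes Harakiri, known chiefly from neurons. It had 1 count in cKO library 1 and no count in the other 5 libraries, and it was too low to test. In those 5 libraries a count of 0 allows up to 3 counts, or 0.116 to 0.156 CPM depending on the library, so a difference in Hrk under that level was not detectable at this depth.

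Leaving out libraries changed the members unequally. Pmaip1 stayed called in all 6 fits with 1 library left out, Bcl2l11 in 2 and Bbc3 in 1, while Bid, Bad, Bmf and Bik were called in none of the 6. In these fits 3 members were called higher without control library 1, 2 without cKO library 2 and 1 without each of the other 4 libraries. Over all tested genes, 514 were called higher with all libraries. That number was 1000, 178 and 285 without control libraries 1, 2 and 3, and 179, 332 and 42 without cKO libraries 1, 2 and 3. In either direction 1191 genes were called with all libraries. This became 2030, 413 and 636 without control libraries 1, 2 and 3, and 465, 745 and 120 without cKO libraries 1, 2 and 3.

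**Figure D3:**
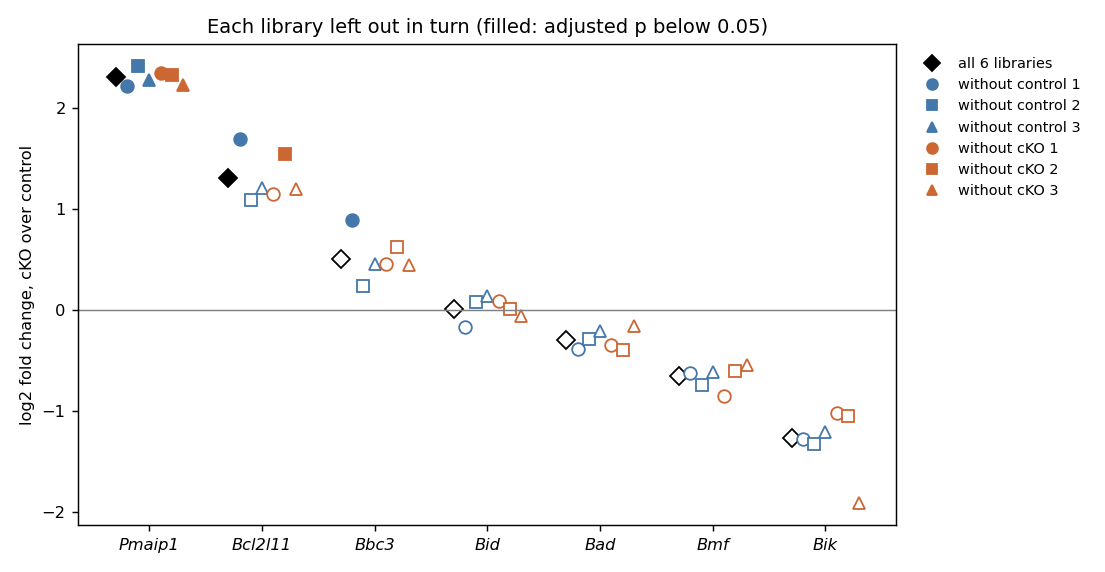
Log2 fold change of each tested BH3-only gene with all 6 libraries (diamonds) and with each library left out in turn; filled symbols have an edgeR adjusted p below 0.05. Pmaip1 kept a filled symbol throughout, and Bcl2l11 lost it in 4 of 6 fits with values between 1.09 and 1.69.

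Levels were compared between members only per length, with the deposited FPKM values (fragments scaled to transcript length and library size). In control DP cells the order by mean FPKM was Bid (45.2), Bbc3 (39.2), Bad (33.7) and Bcl2l11 (26.1), and neighbours in this order overlapped in range. Bmf (5.81), Pmaip1 (3.99) and Bik (2.78) followed, each without overlap with the gene above it, and Hrk was listed at 0. In cKO the order began with Bcl2l11 (66.8), Bbc3 (56.4) and Bid (46.4), whose neighbouring ranges overlapped, although Bid was below Bbc3 in each of the 3 cKO libraries. Bad (27.3), Pmaip1 (20.5), Bmf (3.73) and Bik (1.14) followed without overlap. Bcl2l11 thus went from place 4 to place 1 and Pmaip1 from place 6 to place 5.

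Summed over the 8 genes, FPKM was 173, 136 and 161 in control and 234, 194 and 239 in cKO libraries 1, 2 and 3. All cKO sums were above all control sums. Without Bcl2l11 and Pmaip1 the sums were 133, 113 and 135 in control and 137, 128 and 139 in cKO, and the groups overlapped. The mean sum was 65.5 FPKM higher in cKO, to which Bcl2l11 added 40.7 FPKM, Bbc3 17.2 and Pmaip1 16.5, while Bad was lower by 6.46 FPKM. Bcl2l11 made up 16.4 ± 4.48% of the sum in control and 29.7 ± 5.13% in cKO, and Pmaip1 2.61 ± 0.760% and 9.29 ± 0.653% (SD, n = 3 each). Bid went from 29.4% to 21.1% of the sum and Bad from 21.7% to 12.4%.

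**Figure D4:**
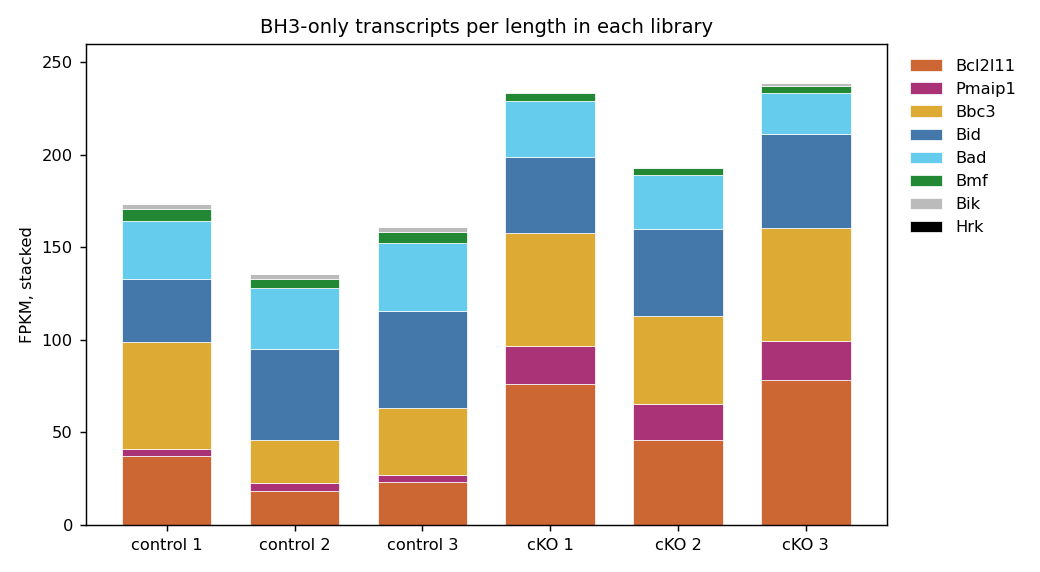
Deposited FPKM of the 8 BH3-only genes stacked in each of the 3 control and 3 cKO libraries. The stacks reached 136 to 173 FPKM in control and 194 to 239 FPKM in cKO, with the Bcl2l11 and Pmaip1 segments taller in every cKO library.

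The ratio of BH3-only transcripts to survival transcripts is given as a description of these levels. Bcl2l11 per Bcl2l1 was 0.0942, 0.0617 and 0.0846 (ratio of FPKM) in control libraries 1, 2 and 3 and 0.353, 0.162 and 0.355 in cKO libraries 1, 2 and 3. Pmaip1 per Mcl1, the transcript of its main partner, was 0.0552, 0.111 and 0.0809 in control and 0.403, 0.406 and 0.466 in cKO. For both ratios every cKO library was above every control library. Bcl2l11 per Bcl2 was 8.08, 4.03 and 4.52 in control and 17.8, 10.3 and 18.8 in cKO. The sum of the 8 BH3-only genes over the sum of the survival genes was 0.373, 0.396 and 0.497 in control and 0.853, 0.573 and 0.870 in cKO, again without overlap.

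A further 6 lists covered the genes around the BH3-only proteins, with 49 genes of which 43 were tested. Of these, 4 were higher in cKO (Foxo1, Ddit3 and E2f1 among them), 2 were lower (Btrc and Becn1) and 37 did not pass the edgeR test. Over all tested genes 4.47% were higher and 5.89% lower.

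Of the 8 survival genes 6 were tested and none was called, with a median log2 fold change of -0.084. At an unadjusted p under 0.05, 1 was lower (Bcl2l1), and neither DESeq2 nor limma-voom called any. Bcl2l1 (BCL-XL) stood at 923, 689 and 647 CPM in control and 505, 660 and 516 CPM in cKO, and control library 3 was below cKO library 2 (log2 fold change -0.43, SE 0.16, edgeR adjusted p = 0.112). Mcl1, whose protein is the main partner of NOXA, was at 144 to 214 CPM in control and 156 to 176 CPM in cKO (log2 fold change -0.08, edgeR adjusted p = 0.779), and the value was 0.096 without control library 1. Bcl2 was at 18.9 to 25.6 CPM in control and 18.2 to 19.7 CPM in cKO (log2 fold change -0.25, edgeR adjusted p = 0.411). The near-identical Bcl2a1 copies were low and share reads, so their values are uncertain.

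Neither tested effector was called by edgeR, DESeq2 or limma-voom, and none had an unadjusted p under 0.05. Bax stood at 79.9, 74.0 and 73.0 CPM in control and 80.8, 97.4 and 95.4 CPM in cKO, with every cKO library above the controls by a small margin in library 1 (log2 fold change 0.27, edgeR adjusted p = 0.194). Bak1 was low, at 2.75 to 4.66 CPM in control and 2.21 to 3.43 CPM in cKO (log2 fold change -0.45, edgeR adjusted p = 0.529).

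Among known regulators of BH3-only transcripts, 3 of 9 tested genes were higher and the median log2 fold change was 0.44, the highest of the 6 lists. Foxo1, a transcription factor that can act on Bcl2l11, was at 118, 93.6 and 95.8 CPM in control and 148, 132 and 179 CPM in cKO (log2 fold change 0.58, SE 0.15, edgeR adjusted p = 0.0366). On FPKM values it missed the threshold, with limma adjusted p-values of 0.0590 with 0.1 added and 0.0643 with 1 added. Ddit3 (CHOP), a stress factor that can raise Bcl2l11, was at 69.9, 36.5 and 37.4 CPM in control and 127, 73.8 and 94.7 CPM in cKO (log2 fold change 1.04, SE 0.27, edgeR adjusted p = 0.0373). E2f1, a cell cycle factor that can act on several BH3-only genes, was at 40.8, 41.0 and 52.5 CPM in control and 64.3, 80.9 and 87.5 CPM in cKO (log2 fold change 0.79, SE 0.16, edgeR adjusted p = 0.0167). The cKO libraries were above the controls in all 3 genes and in 4 of the 9 tested regulators, against 15.7% of all tested genes. The fourth was Atf4, at 172 to 242 CPM in control and 248 to 314 CPM in cKO (log2 fold change 0.44, edgeR adjusted p = 0.0811). DESeq2 called 4 regulators higher, Atf4 among them, and limma-voom called 3. No regulator was lower by edgeR, DESeq2 or limma-voom or at an unadjusted p under 0.05. Trp53, whose protein acts on Pmaip1 and Bbc3, was at 195 to 268 CPM in control and 265 to 284 CPM in cKO (log2 fold change 0.21, edgeR adjusted p = 0.350).

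Of 12 partners of BH3-only proteins 1 was lower and none higher by edgeR, with 3 higher (Casp2, Ywhae and Mtch2) and 2 lower (Btrc and Mapk9) at an unadjusted p under 0.05 and none called higher by DESeq2 or limma-voom. The lower gene was Btrc, a ubiquitin ligase subunit that can mark phosphorylated BIM for breakdown, at 52.5, 56.3 and 48.9 CPM in control and 28.5, 34.9 and 29.2 CPM in cKO (log2 fold change -0.77, SE 0.15, edgeR adjusted p = 0.0129). Of 5 tested genes for other proteins with a BH3 motif, Becn1, an autophagy gene, was lower, from 253, 261 and 262 CPM in control to 204, 203 and 193 CPM in cKO (log2 fold change -0.37, SE 0.10, edgeR adjusted p = 0.0459). Both genes were lower in every cKO library, as were 2 of the 12 partners, 2 of these 5 genes and 17.3% of all tested genes. None of these 5 was higher by edgeR, DESeq2 or limma-voom or at an unadjusted p under 0.05. Over the 6 lists 0 genes were called higher without control library 2 or cKO library 3, 1 without cKO library 1 and 2 without control library 3; 0 were called lower without control library 2, cKO library 1 or cKO library 3, and 1 without control library 3 or cKO library 2.

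**Figure D5:**
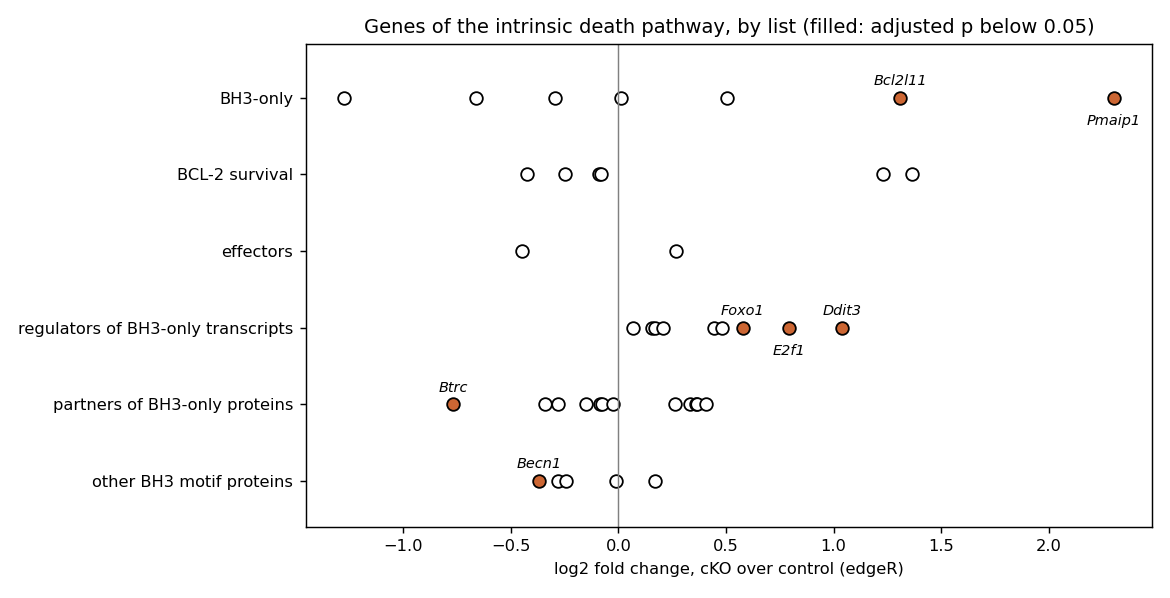
Log2 fold change of cKO over control for the tested genes of the BH3-only list and of 5 of the 6 lists around it, 1 circle per gene; filled circles have an edgeR adjusted p below 0.05 and carry their names. Pmaip1 (2.30) lay furthest right. Bcl2l11 (1.31) lay between the survival genes Bcl2a1b (1.36) and Bcl2l2 (1.23), which were scarce and not called. The 2 filled genes Btrc and Becn1 lay below 0.

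The genes with the profile most like each called member were found by the root mean square difference of centred log2 CPM over the 6 libraries. For Bcl2l11 these were Fscn1 (0.116), Zc3h12a (0.117) and Tgif2 (0.126). Tgif2 stood at 81.5, 32.8 and 49.0 CPM in control and 132, 79.2 and 145 CPM in cKO, with control library 1 highest among the controls and cKO library 2 lowest in its group, as for Bcl2l11. For Pmaip1 the nearest 3 included Dnase1l3 (0.177) and Tyrobp (0.301), both scarce, with means of 0.637 and 0.430 CPM in control and 3.68 and 2.03 CPM in cKO. Tyrobp is known chiefly from myeloid cells, and the macrophage markers given above were higher in the same libraries. The likeness describes these 6 libraries and has no test.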

How the data were processed

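RNA was extracted from sorted DP thymocytes and pre-amplified as cDNA; the kit is Discover-sc WTA in the study's methods and SMARTER in the labels. The submitters' processing notes name fastp 0.18.0, Bowtie2 2.2.8, HISAT2, StringTie and RSEM; build, annotation and strand setting of the counting: not given in the sources used here. Raw counts per gene were deposited by the authors for each library, and the deposited FPKM values were scaled by the authors for length and library size. Amplified reads are not independent molecules, and the limit for a count of 0 covers counting error only. The authors' group means, fold changes and p-values were not used.

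Groups came from the sample labels. Genes were kept by filterByExpr (minimum count 10, minimum total 15), leaving 11488 of the 15349 genes that had a count. The main test was edgeR 4.0.16 (R 4.3.3), quasi-likelihood, TMM, genotype as the only term, Benjamini-Hochberg adjustment over all tested genes, called at 0.05. The test was run on simulated counts, in which genes with a mean of at least 5 CPM were changed. It called 78 of 109 genes changed by 1 on the log2 scale (71.6%) and 90 of 91 changed by 2 (98.9%). In the same simulation 14 unchanged genes were called, and 0 were called where no gene was changed. No libraries of a group were duplicates. Alternatives were DESeq2 1.42.0, RLE factors, total counts alone, no filter, a mean of at least 5 CPM, limma-voom (limma 3.58.1), limma on log2(FPKM + 0.1) and log2(FPKM + 1), a replicate block, each library left out, and a call that also required an absolute log2 fold change above 1. CPM are TMM-scaled. Positions and coding sequences were from GENCODE M21 (GRCm38), matched by Ensembl identifier for all 8 members. Members, lists and tests were chosen with earlier results of these data known. Named genes were the 8 members, Paxbp1, list genes with an adjusted p below 0.05, Bcl2, Bcl2l1, Mcl1, Bax, Bak1, Trp53 and the 3 nearest profiles of each called member. Atf4, Casp2, Mapk9, Mtch2, Ywhae, Bcl2a1b, Bcl2l2 and the markers were named after their values were seen. A pair of genes that the rule names, and 1 list, are not reported here.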

Additional observations from a re-analysis of the deposited data

How the results depend on the processing

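Pmaip1 kept its call in all 15 alternatives (log2 fold change 2.12 to 2.42, largest adjusted p 0.0152) and Bcl2l11 in 11 of 15. The number of members called higher was 2 in every alternative that kept all 6 libraries and ran from 1 to 3 with a library left out. The number called lower was 1 with DESeq2 (Bmf) and 1 with limma on FPKM plus 0.1 and on FPKM plus 1 (Bik), and 0 otherwise. Of the 43 tested genes around them, 4 were higher, with 0 to 5 when a library was left out and 1 (Ddit3) with a log2 fold change above 1 required; both FPKM fits also gave 4, with Mtch2 in place of Foxo1. Becn1 lost its call with RLE factors, total counts alone, no filter, both FPKM fits and the replicate block, which left 1 lower gene each (Btrc); the added fold change left 0, and leaving out a library gave 0 to 3. The causes were not tested. With a library left out, the log2 fold change of Bid ran from -0.17 to 0.14 and that of Mcl1 from -0.20 to 0.096. DESeq2 called 1940 of all genes, where edgeR called 1191.

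Replicate numbers are shared by the labels of both groups. Same-numbered libraries deviated together with correlations of 0.045, 0.038 and -0.030 across genes. Control library 1 correlated best with its own number. Control library 3 did not, and neither did control library 2, by 0.038 against 0.040 with cKO library 3. With 3 libraries per group such correlations cannot exclude a pairing by number. With the replicate block, 2 members were higher, 0 were lower, and 1238 of all genes were called. The edgeR adjusted p was 0.00379 for Bcl2l11 and 0.0748 for Bbc3, against 0.0228 and 0.255 without the block. Depth limits Hrk and Bik most, at 0 to 1 and 14 to 75 counts a library.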

Other observations

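The deposited FPKM and count of a gene imply the length that was used for scaling, as the count divided by FPKM and by the library's total. For Bcl2l11 this length was 3470 to 3944 bases over the 6 libraries, a spread of 1.14 times. The spread was 1.31 times for Bmf, 1.24 for Bik, 1.15 for Pmaip1, 1.14 for Bad and 1.02 for Bbc3. FPKM and CPM therefore do not move in a fixed ratio for Bcl2l11, Pmaip1, Bad, Bmf and Bik. In Bmf the implied length was 4310 bases in cKO library 1 and 3284 bases in cKO library 3.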
